A study of Mus musculus with 27 samples.

Results

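The paired box (Pax) transcription factor genes Pax1, Pax2, Pax3, Pax5, Pax6, Pax7, Pax8 and Pax9 were examined in cultured mouse muscle cells. The 8 genes were chosen by name, with earlier results of these data known. Each was followed from 5 kb before its RefSeq start to 1 kb past its end, read along its own strand. All 8 had at least 3 cytosines in that interval with a level in every library, as had 13014 of 27026 genes with a known strand. The cells were C2C12, an established mouse myoblast line whose cells fuse to myotubes on low serum. As the labels describe, they were set to differentiate near confluence on 2% horse serum, and the serum was then raised to 50% for 2 hours, a shock used to set cellular clocks to a common phase. Every library came from such shocked cells, and none from cells without the shock was analysed here. By the series' design, libraries were taken 12, 18, 24, 30, 36, 42, 48, 54 or 60 h after the shock, with 3 replicates at each of the 9 time points, 27 in all. A clonal line in a dish stands in for muscle only in part, and the labels do not give the share of cells that had fused or say whether replicates were separate cultures. The p-values below therefore measure the spread between these libraries, which may be technical.

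Pax proteins bind DNA through a paired domain and set up tissues in the embryo. Pax3 and Pax7 are close relatives that also carry a homeodomain: Pax3 acts in the muscle progenitors that migrate into the limbs and in neural crest, and Pax7 marks and maintains the satellite cells, the stem cells of adult muscle, from which lines such as C2C12 derive. Pax6 directs eye, brain and pancreatic islet development. Pax2, Pax5 and Pax8 form another subgroup, of kidney and ear, of B cells, and of thyroid and kidney, and Pax1 and Pax9 act in the sclerotome and the pharyngeal pouches. Methylation of the cytosine in CpG dinucleotides, when dense around a gene start, goes along with a silent promoter, whereas CpG islands at active or poised starts are usually free of it. The table holds DNA methylation and no RNA, so it does not show which Pax genes were expressed.

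RefSeq promoter sequences (build GRCm38.p6, which mm10 names; 250 bases before to 50 after a transcript start) show where the measurements fall. Of 10 entries for 7 of the 8 genes, 4 held measured positions, and Pax3 had no entry. The entries shown are that of Pax7 (chr4:139832919-139833218, minus strand), the upstream entry of Pax6 (chr2:105668646-105668945, plus strand) and the inner entry of Pax2, 10305 bp inside the gene (chr19:44756656-44756955, plus strand), chosen because they pair the lowest promoters with one of intermediate methylation. Capitals mark each CpG with a level in all 27 libraries.
Pax7: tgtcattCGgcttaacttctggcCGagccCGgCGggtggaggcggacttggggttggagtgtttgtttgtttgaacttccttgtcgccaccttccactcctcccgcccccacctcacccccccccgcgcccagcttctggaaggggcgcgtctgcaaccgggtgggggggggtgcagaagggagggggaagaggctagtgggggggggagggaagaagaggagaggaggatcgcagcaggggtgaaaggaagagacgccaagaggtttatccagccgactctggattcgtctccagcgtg
Pax6: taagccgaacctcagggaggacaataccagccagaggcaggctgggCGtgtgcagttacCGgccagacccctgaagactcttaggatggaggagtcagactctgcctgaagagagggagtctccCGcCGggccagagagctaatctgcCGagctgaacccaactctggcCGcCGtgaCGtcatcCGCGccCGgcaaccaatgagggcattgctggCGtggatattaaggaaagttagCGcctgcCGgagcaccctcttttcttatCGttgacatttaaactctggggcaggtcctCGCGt
Pax2 inner entry: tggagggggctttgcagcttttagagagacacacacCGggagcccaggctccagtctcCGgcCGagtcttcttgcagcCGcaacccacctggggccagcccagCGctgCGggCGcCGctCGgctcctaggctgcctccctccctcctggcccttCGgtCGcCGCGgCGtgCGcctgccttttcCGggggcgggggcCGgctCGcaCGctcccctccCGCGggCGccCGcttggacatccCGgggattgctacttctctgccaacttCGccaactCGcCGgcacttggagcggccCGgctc
In Pax7, 4 of 17 CpGs were measured, all at the upstream end of the entry. Their level was 7.63% ± 6.79 (SD over 27 libraries). In Pax6, 17 of 18 CpGs were measured, at 22.98% ± 5.11, and in the inner entry of Pax2, 28 of 30 CpGs, at 4.14% ± 2.02. A further Pax2 entry (chr19:44755502-44755801), with 15 of 23 CpGs measured, stood at 7.74% ± 2.20. The assay, reduced representation bisulfite sequencing (RRBS), cuts DNA with a restriction enzyme and reads only the ends of the fragments. The labels spell the enzyme MpsI, and the usual RRBS enzyme MspI recognises CCGG, which reads alike on both strands. CCGG occurs 2 times in the Pax7 entry, 4 times in the upstream Pax6 entry and 7 times in the inner Pax2 entry, and 52.8% of all 32851 promoter entries hold it. Among entries with CCGG 58.9% had a measured position, against 1.22% of those without. The entries of Pax8 and Pax9 and the first of Pax2 hold no CCGG and no measured position. Those of Pax1 and Pax5 and the downstream one of Pax6 hold CCGG and had none either.

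Of 937644 positions in the table, 871894 (93.0%) had a level in every library and were kept. Read depth is unknown, since the table gives levels alone, so no counting error can be given. Whether the levels were smoothed along the genome is not stated in the labels. Within a library, the 255 pairs of Pax positions 1 bp apart differed by a median of 0.0626 points, and 99.8% of these differences were under 1 point, as were 99.9% over the whole table. Position means, 100 bp steps, dips and SDs below therefore describe the deposited levels, in which neighbours are not separate measurements. Library means lay between 11.4% and 12.7%. Levels at exactly 0 made up 5.15% to 25.4% of kept positions, and the 25.4% belongs to replicate 3 of 12 h. The Pax genes held 802 positions, of which 725 were kept, and these fell into 19 runs, stretches with gaps of at most 200 bp, among 18447 runs in the table. Kept positions numbered 319 in start zones (1000 bp on either side of the gene start), 87 upstream of these, 319 in gene bodies and 0 at gene ends, so nothing is known here of the ends of the Pax genes. Pax1, Pax3, Pax6, Pax7, Pax8 and Pax9 had a start level. Pax2 had levels only in its body, around its 2 promoter entries inside the gene, and Pax5 only upstream.

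The question put to the table was how the muscle stem cell genes Pax3 and Pax7 stand among the others. They lay at opposite ends. The start of Pax3 was the most methylated of the 6 starts in all 27 libraries, and that of Pax7 the least methylated in all 27. Pax3 stood at 68.3% ± 3.81, with a lowest library of 58.4%, a median of 68.6% and a highest of 75.0%. Pax7 stood at 8.37% ± 2.87, with a lowest library of 1.65%, a median of 7.88% and a highest of 14.1%. The ranges of the libraries did not overlap. Within a library the Pax3 start was 59.9 ± 4.22 points above that of Pax7. That difference ran from 53.0 to 69.6 points (two-sided sign-flip permutation test over libraries, p = 1e-05, the smallest that 100000 permutations can give).

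**Figure D1:**
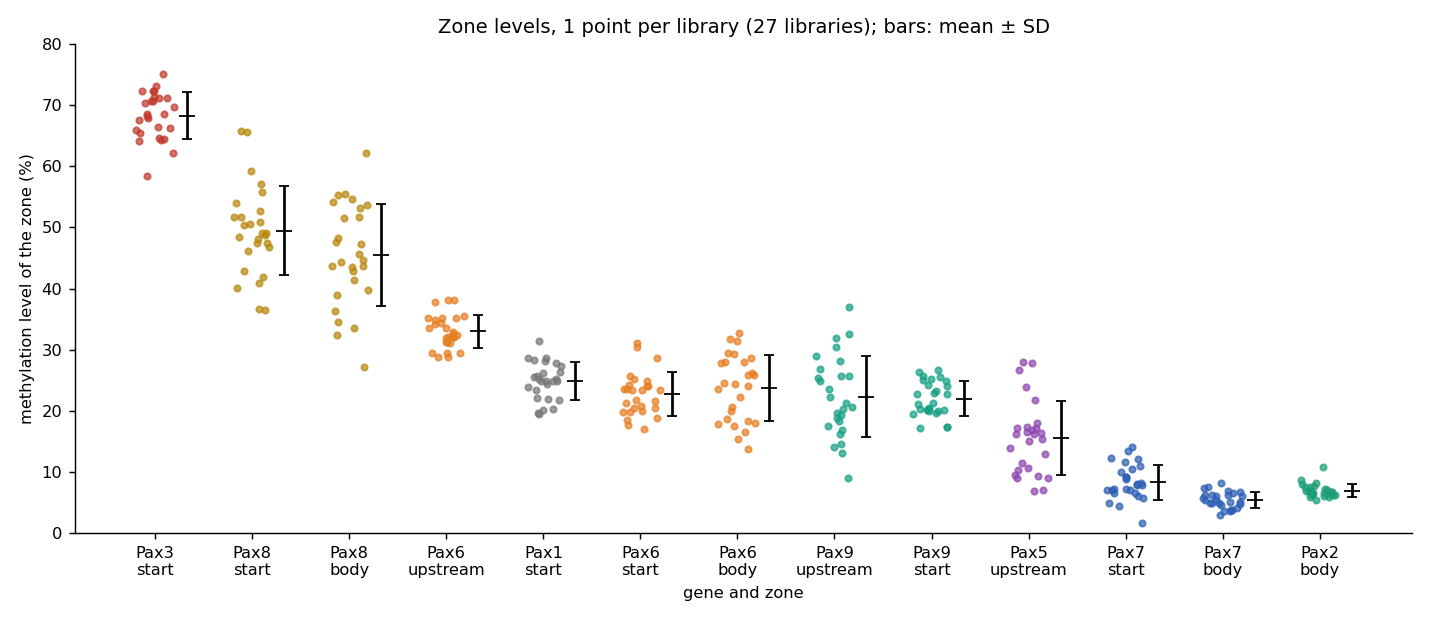
Methylation level (%) of every measured zone of the 8 Pax genes, with 1 point per library (27 libraries) and bars for the mean ± SD. The Pax3 start lies at the top, at 68.3% ± 3.81, the Pax7 start and body and the Pax2 body lie under 10% on average, and the other zones lie between.

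The other 4 starts lay between them, and each was compared with Pax3 and with Pax7 inside each library, 9 pairs in all. Pax8, at 49.5% ± 7.30 (36.5% to 65.8%), was nearest to Pax3. It was 18.8 ± 7.30 points lower within libraries, and by as little as 0.765 points in 1 of them. Pax1 (24.9% ± 3.05), Pax6 (22.8% ± 3.54) and Pax9 (22.0% ± 2.85) formed a middle group, 43.4, 45.5 and 46.3 points below Pax3. The Pax7 start lay 16.5 ± 3.77 points under that of Pax1, 14.4 ± 4.25 under Pax6, 41.1 ± 8.28 under Pax8 and 13.7 ± 4.26 under Pax9. Every one of the 9 differences had the same sign in 27 of 27 libraries (permutation p = 1e-05 each, also after Benjamini-Hochberg adjustment over the 9 pairs). These tests compare loci in these libraries and not kinds of genes, since a locus is not a replicate. The start zones also rest on unlike parts: Pax8 was measured only inside the gene, and Pax7 with 11 of 88 positions before it. Of the start zone runs wholly before the gene, that of Pax7 (30.4% ± 12.8) lay above that of Pax9 (20.8% ± 3.21). It lay below those of Pax1 (31.5% ± 10.3) and Pax3 (90.9% ± 6.85). The place of Pax7 thus depends on the positions measured, and these runs were not tested against each other. In the order of the starts, Pax6 and Pax9 did not differ beyond their spread (0.739 ± 4.23 points, higher in 14 of 27 libraries; permutation p = 0.37). Pax1 exceeded Pax6 by 2.13 ± 4.50 points, less than the spread, in 17 of 27 libraries (permutation p = 0.02, adjusted 0.025 over 5 neighbouring pairs). An intermediate level can be a mixture of cells, of chromosome copies or of neighbouring molecules, and these cannot be told apart in levels without reads.

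Most gene starts in the table were little methylated. Of 11103 starts with a level, 69.8% lay under 10%, 23.6% from 10% to under 50% and 6.67% at 50% or more, with a median of 3.80%. Among the Pax starts, 1 of 6 lay under 10% (Pax7), 4 in the middle class and 1 at 50% or more (Pax3). A level as high as that of Pax3 was reached by 3.32% of all starts, and one as high as that of Pax8 by 6.80%. Of all starts, 82.5%, 81.0% and 80.5% lay at or below those of Pax1, Pax6 and Pax9. Pax7 stood near the bulk, with 67.1% of starts at or below it. By runs, the median Pax run was at 23.2% against 6.23% for all runs.

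Pax3, on the minus strand of chromosome 1 (chr1:78101267-78197136), was measured in 2 runs, both at its start. The longer one (chr1:78196441-78197283; 66 positions, from 147 bp before to 695 bp inside the gene) stood at 66.6% ± 3.95, between 56.4% and 74.1% over the libraries. The shorter one (chr1:78197548-78197612; 5 positions, 476 to 412 bp before the start) stood at 90.9% ± 6.85 and reached 100% in 3 libraries, replicate 3 of 12 h and replicates 1 and 3 of 54 h. The upstream run was higher than the longer one in 27 of 27 libraries, by 24.4 ± 7.02 points. Methylation was therefore not even across this start. In 100 bp steps, it was 70.7% ± 5.73 in the last 100 bp before the gene start. It was 46.8% ± 11.8 in the first 100 bp inside, where single positions had means down to 42.8%. Further in it was 62.5% ± 7.27 from 200 bp, 71.0% ± 5.08 from 300 bp, 69.8% ± 10.9 from 400 bp and 61.8% ± 9.51 from 500 bp. The last step, from 600 bp, stood at 82.8% ± 9.41. The lowest stretch of Pax3 was thus the one just inside the gene start, and its mean was still above every position mean of Pax7, the highest of which was 41.2%. In the 300 bp around the gene start alone the Pax3 level was 63.1% ± 5.23.

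Pax7, on the minus strand of chromosome 4 (chr4:139737059-139833530), had 3 runs with 168 kept positions. The longest (chr4:139831539-139832843; 123 positions, 687 to 1991 bp inside the gene) stood at 4.71% ± 1.07, with 2.99% in the lowest and 6.92% in the highest library. The next (chr4:139833186-139833438; 34 positions, 92 to 344 bp inside), which reaches into the promoter entry printed above, stood at 7.70% ± 5.16, from 0% to 23.3%. The flank before the gene (chr4:139833923-139834120; 11 positions, 590 to 393 bp upstream) was higher, at 30.4% ± 12.8, and its libraries ran from 7.09% to 64.6%. It exceeded the run at 92 to 344 bp by 22.7 ± 12.6 points and the long run by 25.7 ± 12.5 points, each in 27 of 27 libraries. Both sister genes were thus more methylated in the flank before the start than in the run that follows, which at Pax3 begins 147 bp before the start. The same order held at Pax1 in 21 of 27 libraries. It also held in 27 of 27 for the Pax6 run nearest upstream of its start run. At Pax9 the run just before the start was the lower one in 21 of 27. At Pax7 both runs inside the gene were under 10% on average. Because the flank has few positions, the summary of the Pax7 start depends on its weight: the median over positions was 4.39% ± 1.83, and the 500 bp on either side alone gave 12.8% ± 5.79. Around the RefSeq promoter entry of Pax7, which lies 562 bp inside the gene start, the level was 7.13% ± 2.37. Replicate 3 of 12 h, the library with the most zeros, was the lowest library in all 3 Pax7 runs, and without it the start level was 8.63%. The part of that library's zeros in these low values was not tested. The long noncoding RNA gene Gm46873 overlaps the flank and the run at 92 to 344 bp, and not the long run.

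**Figure D2:**
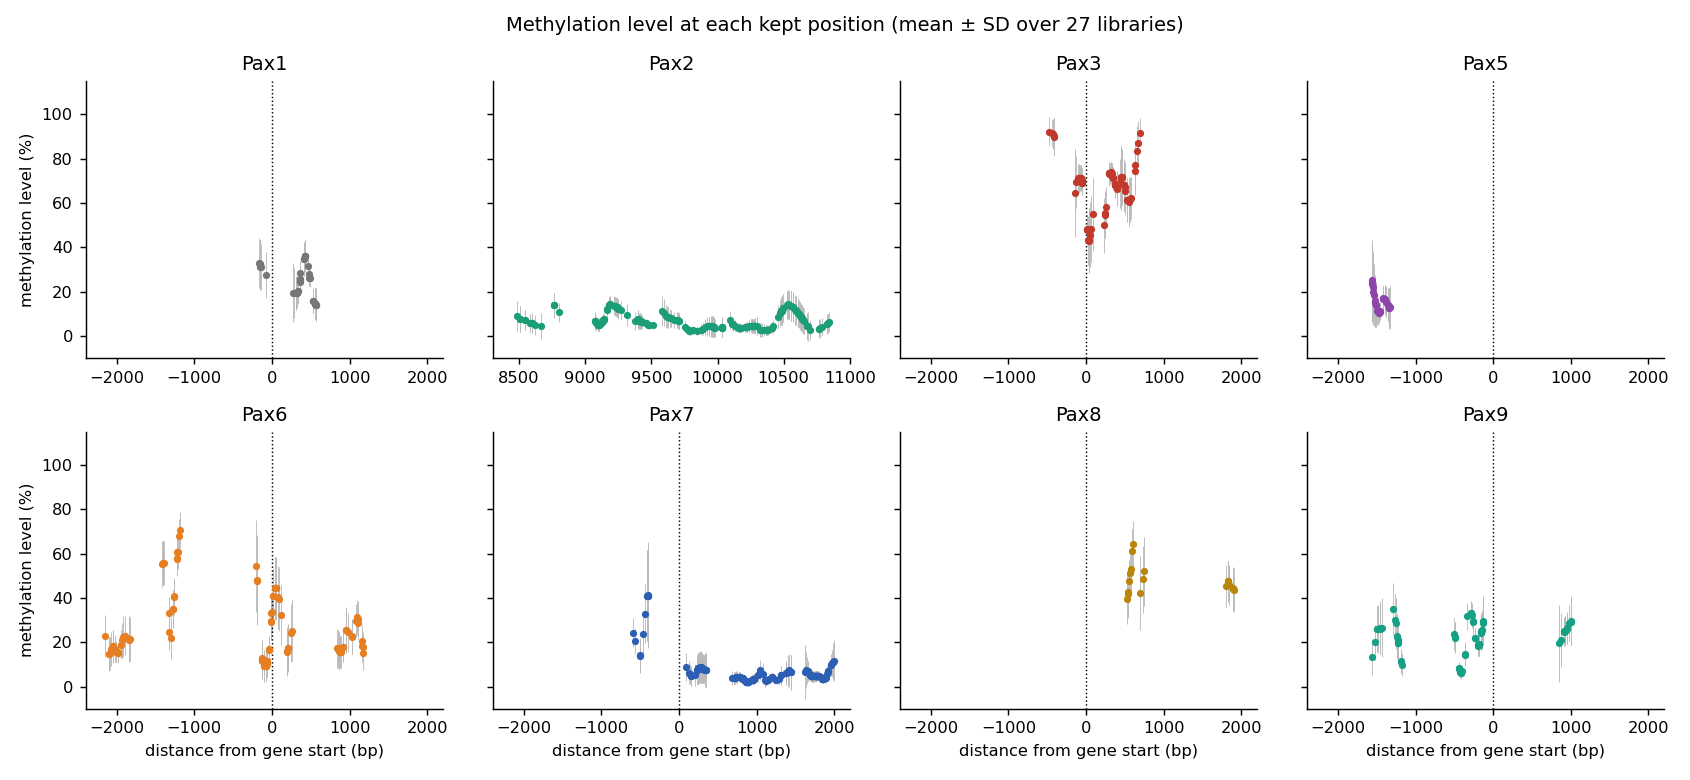
Methylation level (%) of each kept position against its distance in bp from the gene start, 1 panel per Pax gene, as mean ± SD over 27 libraries; the dotted line is the gene start, and Pax2 is drawn over the part of its body that was measured. Pax3 dips to 42.8% just inside its start while Pax7 reaches 41.2% in the flank and stays at 11.6% or less inside the gene.

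Pax6, the eye and brain regulator (chr2:105668896-105698410, plus strand), had 4 runs at unlike levels, all of which lie in the transcript of its antisense neighbour Pax6os1. The run farthest upstream (chr2:105666741-105667065; 20 positions) stood at 18.5% ± 3.70. The next (chr2:105667486-105667712; 18 positions, 1410 to 1184 bp before the start) stood at 49.2% ± 5.50, from 40.0% to 63.6%. It was higher than the runs on either side of it in 27 of 27 libraries, by 30.7 ± 7.56 and 24.7 ± 8.08 points, so methylation upstream of Pax6 was uneven. Inside this short run, position means began at 55.3%, fell to 21.8% near its middle and reached 70.5% at its end nearest the gene. The run over the gene start (chr2:105668693-105669154; 44 positions) stood at 24.4% ± 5.01 and also split: the 100 bp before the start were at 15.6% ± 5.10 and the first 100 bp inside at 42.8% ± 13.5. At Pax6 the stretch just inside the start was the higher one, whereas at Pax3 it was the lowest. The run that follows (chr2:105669738-105670075; 26 positions, from 842 bp inside) stood at 20.3% ± 5.23.

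In the subgroup of Pax2, Pax5 and Pax8, the measured parts stood at unlike levels. These parts lie at different distances from the gene starts, so their levels do not compare the genes. No difference between them was tested. Pax8, the thyroid and kidney regulator (chr2:24420551-24475599, minus strand), had 2 short runs. The one at 525 to 746 bp inside the gene (chr2:24474853-24475074; 11 positions) was at 49.5% ± 7.30, and the one at 1800 to 1903 bp (chr2:24473696-24473799; 8 positions) at 45.5% ± 8.35. The first was higher in 18 of 27 libraries, by 4.02 ± 9.34 points, which was not tested, and methylation of Pax8 was intermediate at both. A level was lacking in some library at 29 of the 37 positions of its body, the largest number in any zone of a Pax gene. It was not the largest share, since all 14 positions of the Pax5 start lacked one.

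Pax2, the kidney and ear regulator (chr19:44746601-44838269, plus strand), had no kept position within 5 kb of its outermost start. Its 221 positions lie 8483 to 10845 bp inside the gene, over the promoter entries whose transcript starts are 9151 and 10305 bp in. The long run there (chr19:44755675-44757446; 206 positions) was at 6.90% ± 1.13, with libraries from 5.46% to 10.9%, and the shorter one before it (chr19:44755084-44755406; 15 positions) at 8.25% ± 2.94. Within 1000 bp of the inner promoter entry the level was 6.29% ± 1.38. By its promoters inside the gene Pax2, like the start of Pax7, was under 10%, and the difference between them was not tested. Even the highest 100 bp step of this region was only at 13.9% ± 5.56.

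Pax5, the B cell identity factor (chr4:44524748-44710694, minus strand), had 1 run (chr4:44712024-44712259; 28 positions, 1565 to 1330 bp before the start) at 15.6% ± 6.00, from 6.99% to 27.95%. None of the 14 positions in its start zone had a level in every library. The 5 of them with a level in at least 24 libraries gave 17.4% ± 24.3 over 25 libraries, ranging from 0% to 100%, too wide to place the Pax5 start among the others.

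Pax1 and Pax9, the sclerotome pair, had close start levels, and the difference between them was not tested. At Pax1 (chr2:147361930-147375049, plus strand) the run before the start (chr2:147361759-147361851; 8 positions) stood at 31.5% ± 10.3, from 6.51% to 47.3%. The run inside (chr2:147362204-147362504; 32 positions) stood at 23.2% ± 3.57, from 14.7% to 29.4%, and the run before the start was the higher one in 21 of 27 libraries, by 8.20 ± 11.8 points, which was not tested. Pax9 (chr12:56691693-56712824, plus strand) had runs at 22.4% ± 6.64 (chr12:56690130-56690523; 21 positions), 20.8% ± 3.21 (chr12:56691192-56691567; 36 positions) and 25.4% ± 5.96 (chr12:56692546-56692693; 13 positions), in order along the gene. The middle run of Pax9 was below the last in 21 of 27 libraries, by 4.66 ± 6.75 points, and below the first in 15 of 27, by 1.57 ± 7.11 points; neither was tested. In both genes the curated promoter entry lies further in, by 3064 bp at Pax1 and 3778 bp at Pax9, and no kept position fell within 1000 bp of it, so the levels given are those of the outermost RefSeq start. Long noncoding RNA genes, AI646519 at Pax1 and Gm15524 at Pax9, overlap all of these runs.

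The spread between libraries varied with the level. The SD of the 19 Pax runs went from 1.07 points (long run of Pax7, 123 positions) to 12.8 points (flank of Pax7, 11 positions). Its median was 5.23 against 2.78 for all 18447 runs. Most Pax runs lie at levels where all runs vary more: for the 13 Pax runs at 15% to 50% the median SD was 5.96, against 5.80 for the 3948 runs of the table in that range. The long run of Pax3, a mean of 66 positions, had an SD of 3.95, below the median of 6.25 for runs at 65% to 70%. The short upstream run of Pax3, of 5 positions, went the other way, with an SD of 6.85 against a median of 3.85 for runs at 90% to 95%. Runs were matched here by level and not by number of positions, and the part of run size in these SDs was not tested.

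**Figure D3:**
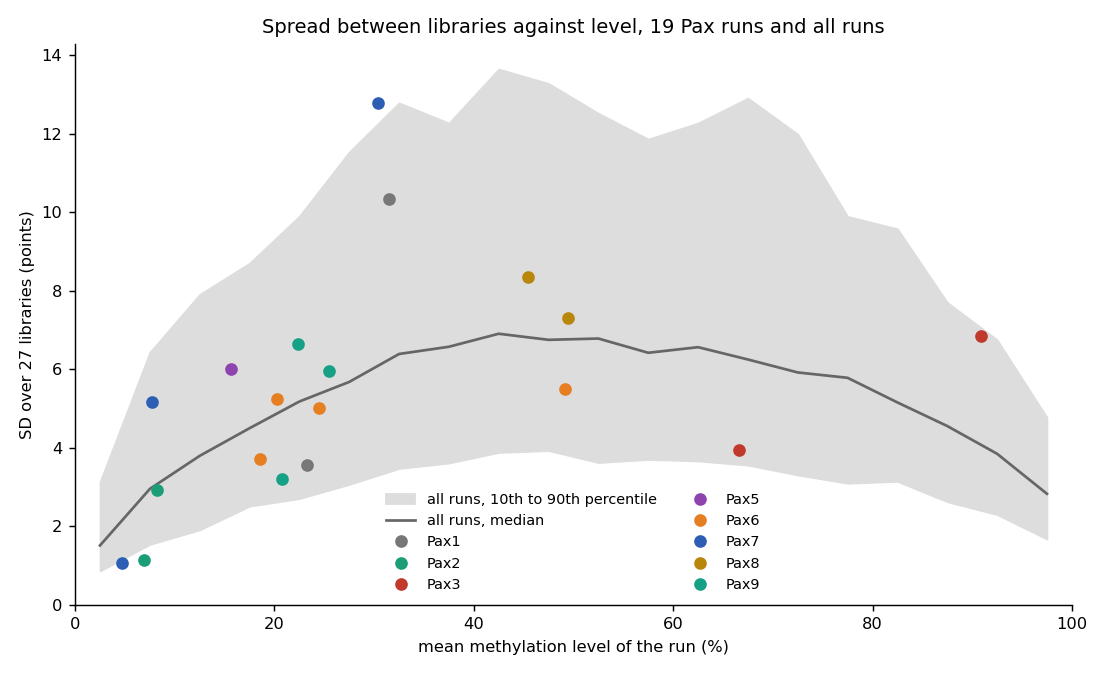
SD over 27 libraries (points) against the mean methylation level (%) of a run, with 1 point for each of the 19 Pax runs; the grey line and band are the median and the 10th to 90th percentile of all 18447 runs in 5-point level classes. Pax runs lie on both sides of the grey line, from 1.07 to 12.8 points.

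Whether any Pax run changed after the serum shock was asked with limma over all 27 libraries and all runs. Pax3 lay between 65.0% ± 3.26 (42 h; SD, n = 3) and 71.1% ± 2.10 (24 h), and Pax7 between 5.26% ± 3.28 (12 h) and 11.04% ± 0.615 (60 h). The 3 libraries of Pax3 at 24 h (68.6% to 72.3%) were all above the 3 at 42 h (62.2% to 68.6%), by a narrow margin. The 3 libraries of Pax7 at 60 h (10.5% to 11.7%) were all above the 3 at 12 h (1.65% to 8.04%). The lowest of these, 1.65%, was replicate 3 of 12 h, the library with the most zeros. In each gene these time points were picked as the highest and the lowest of 9 means. How many of all gene starts separate in this way was not counted, and the zone levels were not tested over time. At every time point the Pax3 mean was above, and the Pax7 mean below, those of the other 4 starts. Pax8 ran from 41.2% ± 8.05 (42 h) to 54.2% ± 9.98 (36 h), Pax1 from 22.2% ± 2.87 to 26.7% ± 1.89, Pax6 from 19.2% ± 1.80 to 25.7% ± 4.47 and Pax9 from 19.6% ± 2.07 to 23.7% ± 1.05.

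**Figure D4:**
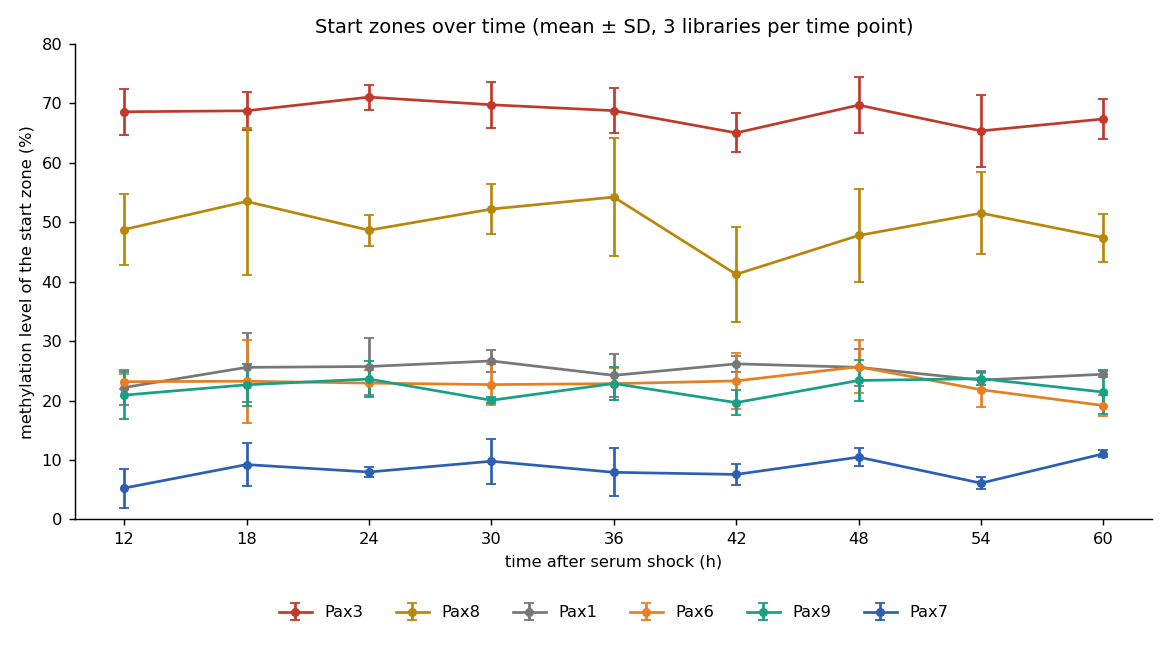
Methylation level (%) of the 6 Pax start zones against the time after serum shock (h), as mean ± SD of 3 libraries per time point. Pax3 stays between 65.0% and 71.1% and Pax7 between 5.26% and 11.04%, with the other 4 starts between them at all 9 time points.

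For a 24 h rhythm, 0 of the 19 Pax runs passed (limma, adjusted p over all runs), where 0% of all runs passed; 1 of 19 had an unadjusted p under 0.05, against 4.34% of all runs. Fitted amplitudes ran from 0.129 points (long run of Pax7) to 4.96 points (inner run of Pax8), with a median of 1.82 points. The median over all runs was 0.870 points, and over those at 15% to 50% it was 1.84 points, against 2.04 points for the Pax runs in that range. At the long run of Pax3 the amplitude was 1.10 points (SE 1.03; unadjusted p = 0.568, adjusted 0.981), with an upper 95% limit of 4.05 points. At the long run of Pax7 that limit was 1.01 points, the smallest of the Pax runs. It reached 12.1 points at the flank of Pax7 and 10.7 points at the inner run of Pax8, the widest of the Pax runs.

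Any difference between time points was called at 0 of 19 Pax runs (limma), against 0.00542% of all runs, and 2 of 19 had an unadjusted p under 0.05, against 4.30% of all runs. They were the shorter run of Pax2 and the inner run of Pax8. The Pax2 run stood at 12.7% ± 2.23 at 18 h, at 7.87% ± 5.55 at 12 h and at 5.24% ± 1.00 at 60 h (SD, n = 3; adjusted p = 0.990 in limma). Its 3 libraries of 18 h, from 11.2% to 15.3%, were above those of every later time point except 36 h, whose highest was 11.6%. The inner run of Pax8 stood at 57.4% ± 4.20 at 30 h, 38.3% ± 9.67 at 12 h and 38.5% ± 5.38 at 60 h (SD, n = 3; adjusted p = 0.990 in limma).

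A linear trend was called at 0 of 19 Pax runs (limma), against 0% of all runs, and 3 of 19 had an unadjusted p under 0.05, against 4.99% of all runs. Of the 19 slopes, 9 were positive, against 49.4% over all runs. The shorter Pax2 run had a slope of -3.83 points per 48 h (SE 1.59, adjusted p = 0.976). At Pax6 the upstream run near 50% had 6.42 (SE 3.01) and the run 842 bp inside the gene -6.06 points per 48 h (SE 2.87), both with an adjusted p of 0.976. Without the libraries numbered 3 the upstream Pax6 slope was 1.99. These Pax6 runs had slopes of opposite sign, and that difference was not tested. The long run of Pax3 had -3.23 (95% interval -7.87 to 1.41) and that of Pax7 -0.198 points per 48 h (-1.62 to 1.22). Their shorter runs had wider intervals. The upstream run of Pax3 had 0.244 (-8.07 to 8.55). At Pax7 the run at 92 to 344 bp had 4.30 (-1.74 to 10.3). The flank of Pax7 had 8.81 (-6.29 to 23.9), the highest slope of the Pax runs.

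Single positions gave the same picture. Of the 725 Pax positions 0 passed for rhythm, difference between time points or trend, where 0%, 0.00413% and 0% of all positions passed. With an unadjusted p under 0.05 there were 31 (4.28%) for the rhythm, 8 (1.10%) for time points and 39 (5.38%) for the trend, against 3.91%, 4.17% and 4.48% of all positions. Neighbouring positions share their level and are not separate measurements.

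Genes known to work with the Pax factors were described at their starts, by lists chosen with earlier results of these data known. Of 23 myogenic partners and targets of Pax3 and Pax7, 12 had a start level, with a median of 4.73%. Of these 8 lay under 10%, 4 in the middle class and 0 at 50% or more. The lowest was Six5 (1.97% ± 1.16), a homeobox gene, and the highest Tcf21 (44.4% ± 6.90), a mesodermal transcription factor gene. The share under 10% over all starts was 69.8%. Around Pax1 and Pax9, 8 of 12 sclerotome and pouch genes had a median of 14.2%, from Hoxa3 (1.56% ± 1.54) to Mfap2 (54.6% ± 8.56). Around Pax2 and Pax8, 8 of 15 kidney, ear and thyroid genes had a median of 18.8%, from the growth factor gene Gdnf (2.21% ± 1.27) to Slc5a5 (82.7% ± 1.77), the iodide transporter gene of the thyroid and a target of Pax8. Around Pax5, 4 of 12 B cell genes had a median of 12.4%, from Ebf1 (2.07% ± 2.49) to Irf4 (29.7% ± 5.60). Around Pax6, 10 of 15 eye, brain and islet genes had a median of 18.1%, from Six3 (6.24% ± 2.20) to the lens crystallin gene Cryaa (53.7% ± 9.87). All 5 lists can be read against the median of 3.80% over all starts.

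Markers of cell types can be described only by methylation here, which names no cell type. Of 8 muscle genes 4 had a start level, from Mylpf (3.72% ± 5.49), a myosin light chain gene, to Myog (76.6% ± 3.92), which encodes myogenin. Of 5 fibroblast markers 3 had one, from Col1a2 (30.2% ± 12.4) to Pdgfra (63.5% ± 15.3). Adipocyte markers had 2 of 4, Pparg (9.40% ± 2.37) and Lep (66.8% ± 7.65), and neural markers 3 of 4, from Neurog1 (7.33% ± 2.01) to Syn1 (36.8% ± 15.4). Blood and endothelial markers had 0 of 4. Whether other cells contributed to the Pax levels was not tested.

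Across the 27 libraries, the start most like that of Pax3 was 6430590A10Rik (Pearson r = 0.619 among 2793 starts at 10% to 90%), followed by Pax6 (0.604) and Lrrn1 (0.581). For Pax7 it was Gm46873 (r = 0.995 among 10322 starts), which overlaps it and shares measured positions, then Gm40010 (0.730) and Ctbp2 (0.725). These are the highest of all values compared, each over the same 27 libraries, and are given as a description.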

How the data were processed

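DNA methylation was measured by RRBS in 27 libraries of C2C12 cells. The submitters' processing notes list Bismark 0.14.4, Bowtie2, cutadapt 1.9.1, Trim Galore 0.4.0 and build mm10, without their settings. The authors deposited methylation levels per position and library as a fraction from 0 to 1, with no coverage, so depth is unknown and nothing was weighted. Levels were multiplied to percent. Positions count from 1: of 249682 that fall in RefSeq promoter sequences, 99.98% lie on the C or G of a CpG. The cytosines of both strands of a CpG can be listed, and smoothing is not stated, so positions are not independent.

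Positions with a level in all 27 libraries were kept. A run needed 3 or more positions and no gap above 200 bp; a zone level is the mean of its kept positions, with at least 3. Upstream was 5000 to 1001 bp before the gene start, the start zone 1000 bp on either side of it, the end zone 1000 bp on either side of the gene end, and the body the rest. Gene limits came from RefSeq (GRCm38.p6) and strand from its promoter table, except for Pax3, whose strand is general knowledge. Rhythm (cosine and sine of 24 h), time point (factor) and linear time were fitted with limma 3.58.1 (R 4.3.3) on all runs and all positions, with Benjamini-Hochberg adjustment over all of them and a threshold of 0.05. Levels of 2 starts were compared within libraries by 100000 sign flips (Python 3.11.15, numpy 2.4.6, pandas 2.3.3; figures with matplotlib 3.10.9). The rhythm fit and the sign-flip test were run on simulated data, and the time point and trend fits were not. The simulated rhythms had amplitudes above every amplitude fitted at a Pax run, so they do not show whether smaller rhythms would be called. The members and lists were chosen with earlier results of these data known. Named in each list are the starts with the lowest and the highest level; for likeness, the 3 starts (at least 10 positions) with the highest Pearson r. Alternatives are given in the closing section.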

Additional observations from a re-analysis of the deposited data

How the results depend on the processing

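No Pax run was called for rhythm, time point or trend under any of 38, 36 and 36 alternatives, 27 of which left out 1 library each; the smallest adjusted p over them was 0.960, 0.773 and 0.655. They took in positions with a level in at least 24 libraries, gaps of at most 100 bp, medians, M-values, the library mean as a covariate, periods of 20 h and 28 h, and leaving out all libraries with 1 number. Unadjusted counts ran from 0 to 2, 0 to 2 and 0 to 4. With the replicate number as a block 0 runs were called, with smallest adjusted p of 0.978, 0.989 and 0.973, and the 3 slopes with an unadjusted p under 0.05 kept their sign. Same-numbered libraries of different time points did not deviate together over all runs (mean r 0.00489 over 108 pairs, 0 over 0.1). Differently numbered ones had a mean r of -0.00242 over 216 pairs. A batch shared by same-numbered libraries at few runs cannot be seen in such a mean, and it was not tested. The 9 start differences kept their sign and call under every alternative that gave a value, including time point means (adjusted p = 0.00391, exact sign-flip test); means by replicate number, a replicate block of 3 values, kept their sign without a test. Levels that moved by more than 1 SD were, with 250 bp upstream to 50 bp inside, Pax1 (31.5%) and Pax3 (63.1%). With the median over positions they were Pax2 body (5.55%), Pax6 upstream (27.002%), Pax6 start (17.3%) and Pax7 start (4.39%). They were also Pax6 upstream with positions 1 bp apart merged (29.5%), Pax6 start from 5000 bp upstream (26.7%) and Pax7 start within 500 bp (12.8%). The windows hold other positions by construction. Start zones around promoter entries were chosen after seeing the data, and Pax1 and Pax9 gave no value there. Pax7 and Pax8 gave none with the narrowest window. Pax8 also gave none within 500 bp of its start, where it had no kept position. Unknown depth limits every level.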
